A study of Mus musculus with 7 samples.

Results

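Chromosome contacts that exceeded their predicted signal in both mouse embryonic stem (ES) cells and neural progenitor cells (NPCs) were described here. The assay was 5C, chromosome conformation capture carbon copy, which counts ligations between restriction fragments of chosen genome regions. A pair of fragments was taken as a shared contact when its raw reads were at least 2 times the deposited predicted signal, with at least 10 reads, in each of the 4 libraries. The rule chose 792 of 86767 pairs, made of 731 forward and 733 reverse fragments. Of the 28301 pairs with at least 10 reads in all 4 libraries, here called covered pairs, it took 2.80%. Ratio means raw reads over predicted signal throughout, and since the contacts were chosen by their ratios and reads, both are given for them as a description.

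The ES cells were of the male V6.5 line, from a 129SvJae x C57BL/6 cross, with no treatment. They were grown with LIF on inactivated mouse embryonic fibroblast feeders and then passaged on gelatin to remove the feeders. The NPCs were derived in culture from ES cells of the same background, in steps of 4 days as embryoid bodies with LIF withdrawn, 5 to 7 days under selection, and 2 to 4 days of growth. Formaldehyde at 1% fixed both, the DNA was cut with HindIII, and each cell type had 2 libraries. The labels do not say that the libraries came from separate cultures, so the spread between them may be technical. No marker of either cell type was measured here, so the cell labels could not be checked.

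In a 5C experiment, forward primers sit on some restriction fragments and reverse primers on the others, and only a forward fragment joined to a reverse fragment is counted. Contact frequency falls with distance along the chromosome, so contacts of interest are read against an expectation for their distance and primers. Fragment pairs above that expectation can mark loops, whose ends in mammals are often occupied by CTCF and cohesin, and the dense interior of topological domains. Captured regions surrounded Oct4, Nanog, Sox2 and Klf4, which encode transcription factors of pluripotent cells, and Nestin, whose product is an intermediate filament protein typical of neural progenitors. They also surrounded Olig1 and Olig2, transcription factor genes of the oligodendrocyte and motor neuron lineages, and a gene desert as negative control. Sox2 is also expressed in neural progenitors. The table gives distances and fragment names without chromosome positions. Places are therefore counted in kb, with 0 at the lowest-numbered fragment of a region, and where the named gene lies within it was not used here.

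Values of 4 libraries are listed in the order ES replicate 1, ES replicate 2, NPC replicate 1, NPC replicate 2. Total counts ran from 8236666 reads in ES replicate 2 to 42673906 in NPC replicate 2. The shared contacts held 42.9%, 64.1%, 28.4% and 34.3% of all reads. Much of this lay in 2 of them, since 3 pairs of the Oct4 region took between 19.7% and 53.3% of a library and 2 of those 3 were shared contacts. Without the 3 pairs, shared contacts held 18.5%, 23.3%, 15.2% and 14.0% of reads. A ratio of 2 or more was reached by 10.6% and 10.7% of all pairs in the ES libraries and by 16.0% and 16.9% in the NPC libraries. The NPC libraries therefore passed more pairs at the same threshold.

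The median shared contact had ratios of 2.95, 2.69, 3.48 and 3.92, against 1.13, 1.15, 1.18 and 1.37 over covered pairs. Its median reads were 254, 149.5, 327 and 588. Most excesses were moderate. By the geometric mean of the 4 ratios, 298 contacts lay between 2 and 3, 337 between 3 and 5, and 87 between 5 and 10, while 34 lay between 10 and 30 and 36 at 30 or more. Nearest above the threshold, Olig1-Olig2 FOR245-REV132 had ratios of 2.15, 2.00, 2.98 and 2.78. Just below it, Olig1-Olig2 FOR127-REV224 had 2.28, 1.999, 2.35 and 4.11. Nanog FOR039-REV042 and Nestin FOR084-REV174 were the next inside, each with a lowest ratio of 2.00. Oct4 FOR153-REV205 and Olig1-Olig2 FOR098-REV048 were just outside, with lowest ratios of 1.9996 and 1.998.

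The Oct4 region held 366 of the 792 shared contacts, or 4.78% of its 7664 covered pairs. Nanog had 56 (3.20%), Olig1-Olig2 150 (2.52%), Klf4 97 (2.15%), Nestin 63 (2.00%), Sox2 56 (1.14%) and the gene desert 4 (1.09%). A region's pairs differ in distance, so the count was set against that given by the pooled share of covered pairs in each distance bin. Oct4 had 1.48 times and Nanog 1.22 times that number. Olig1-Olig2 had 0.952 times, Klf4 0.837, Nestin 0.780, the gene desert 0.423 and Sox2 0.412. Oct4 raises the pooled shares. With the shares of the other 6 regions alone, a base added after the data had been seen, Nanog stood at 1.57, Olig1-Olig2 at 1.21, Klf4 at 1.08 and Nestin at 1.01. Sox2 stayed below on that base, with 56 contacts where 106.9 were given, as did the gene desert with 4 against 7.14.

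Distances of the shared contacts ran from 1.525 kb to 2056 kb, with a median of 199 kb, against 152 kb over covered pairs. At long distance few reads are predicted, and a pair then needs an excess merely to reach 10 reads. Shares were therefore also taken over the 46264 pairs predicted at 5 or more reads in every library, where a ratio of 2 already gives 10 reads. On that base 722 pairs, 1.56%, were shared contacts, and the other 70 had a lower prediction in some library. The share was 5.86% within 10 kb, fell to 0.955% between 20 and 50 kb, and stood at 1.67% between 200 and 400 kb and 0.792% between 400 and 800 kb.

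Oct4 had a distance profile of its own. Within 10 kb its share of 5.57% was close to the 5.92% of the other 6 regions together. Between 50 and 100 kb it was 5.64% against 0.738%, and between 100 and 200 kb 4.21% against 0.603%. Beyond 800 kb it was 2.71%, 57 of 2106 pairs, against 1 of 620 pairs elsewhere. Oct4 spans 2099 kb and the other regions at most 1138 kb, so this open bin holds unlike distances. In the other 6 regions the shares were highest within 10 kb and rose again to 1.42% between 200 and 400 kb. That second range held 2.16% of the Olig1-Olig2 pairs and 1.76% of the Klf4 pairs, but 0.532% of the Sox2 pairs.

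**Figure D1:**
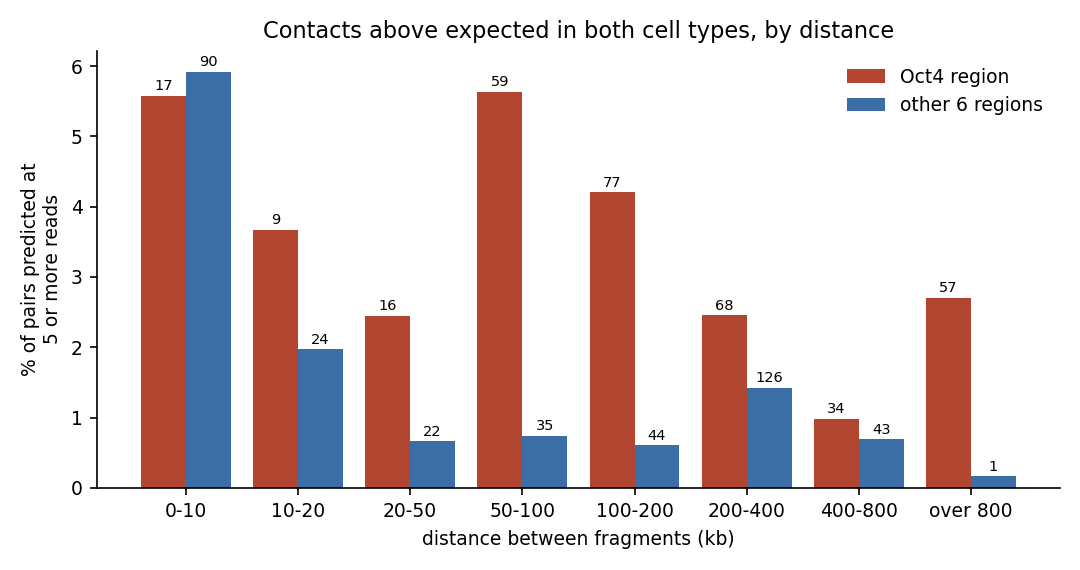
Share of pairs that were shared contacts (%, y axis) in each bin of distance between fragments (kb, x axis), among pairs predicted at 5 or more reads in all 4 libraries, for the Oct4 region (red) and the other 6 regions together (blue). Numbers over the bars count the shared contacts: Oct4 stands above the other regions at 50 to 200 kb and beyond 800 kb, and close to them within 10 kb. The last bin is open and reaches further in Oct4, which spans 2099 kb against at most 1138 kb elsewhere.

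To read the excess in a library that took no part in the choice, contacts were chosen in 3 libraries and looked up in the other. Of 1344 pairs chosen without ES replicate 2, 58.9% (exact 95% interval 56.2 to 61.6%) passed the rule there, and of 1035 chosen without NPC replicate 2, 76.5% (73.8 to 79.1%) did. ES replicate 1 passed 70.9% of 1117 and NPC replicate 1 passed 73.7% of 1074. Unchosen pairs of the same region and distance bin with 10 reads in the other 3 libraries passed at 11.1%, 7.92%, 18.4% and 25.2%. These intervals cover counting error over pairs only, and pairs that share fragments are not independent. In the library not used, 96.8%, 95.5%, 94.9% and 92.9% of the chosen pairs had a ratio above 1. Their median ratios there were 2.52, 2.19, 2.89 and 3.29, against 1.12, 1.09, 1.14 and 1.29 in the unchosen pairs. A ratio above 1 was thus common in the unchosen pairs too.

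The same reading was made across cell types. Of 1881 pairs that passed in both ES libraries, 42.1% (39.9 to 44.4%) also passed in both NPC libraries, against 9.11% of matched pairs. Their median NPC ratios were 2.23 and 2.41, against 1.09 and 1.21 in matched pairs, and 111 of them were below 1 in both NPC libraries. Of 4467 pairs that passed in both NPC libraries, 17.7% (16.6 to 18.9%) passed in both ES libraries, against 2.78% of matched pairs. The share of ES contacts found again in NPCs was 55.8% for Oct4, 41.7% for Olig1-Olig2, 36.0% for Nestin and 33.7% for Klf4. It was 31.6% for Nanog and 25.8% for Sox2, and 4 of 8 in the gene desert. Of NPC contacts, the share found again in ES cells was 25.2% for Oct4, 20.7% for Nanog and 16.2% for Klf4. It was 15.7% for Olig1-Olig2, 13.7% for Nestin and 8.07% for Sox2, and 4 of 33 in the gene desert. Oct4 stood highest and Sox2 lowest in both directions, while the order of the others changed. Cell types share primers and fragments, so these readings are new libraries of the same fragment pairs.

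Shared contacts often adjoined each other. A contact was joined to another when each of its fragments was the same or the next assayed one of its kind. In this way 365 contacts (46.1%) fell into 102 groups and 427 stood alone. Among covered pairs of the same region and distance that were no shared contacts, 13.5% adjoined one. There were 16 groups of 5 or more, 12 in Oct4, 3 in Olig1-Olig2 and 1 in Nanog.

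**Figure D2:**
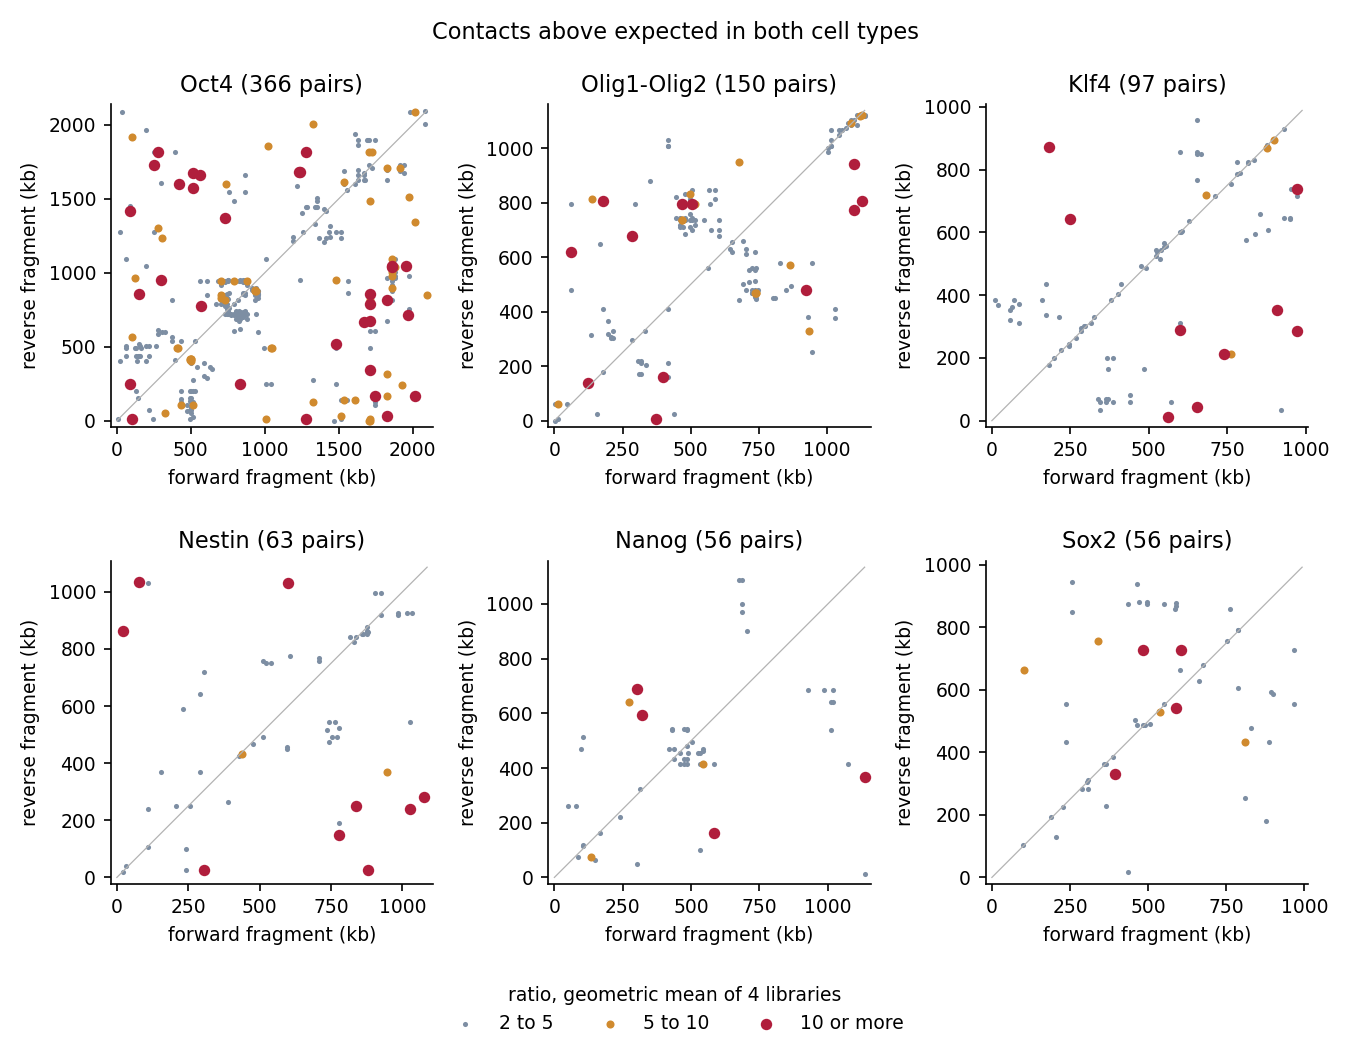
Each point is a shared contact, placed by the position of its forward fragment (x axis, kb from the lowest-numbered fragment) and its reverse fragment (y axis, kb), with the grey diagonal at equal position. Small grey points have a geometric mean ratio of 2 to 5, orange points 5 to 10 and large red points 10 or more; grey points gather in blocks that recur across the diagonal, as in Olig1-Olig2 near 470 and 740 kb, while red points are scattered. The gene desert, with 4 contacts, is not drawn.

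The alternating primers give an internal check. The same 2 places can be joined by a pair in which the forward primer lies at the other place, through 2 other fragments and 2 other primers. Such a pair, each fragment within 10 kb of the contact's own place, is called its mirror pair here. This measure was added after the data had been seen. A mirror pair shares neither primer nor ligated end with the contact, although it comes from the same libraries.

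An example lay in the Olig1-Olig2 region, between places near 470 and 740 kb. A group of 15 contacts joined forward fragments at 460 to 504 kb with reverse fragments at 709 to 758 kb, 230 to 283 kb apart. All 36 fragment pairs of that block, 17 of them shared contacts, had median ratios of 2.52, 2.28, 3.14 and 3.20. In the swapped orientation, 11 of 36 pairs were shared contacts and the medians were 1.93, 1.98, 2.78 and 2.94. Since the blocks hold many pairs that the rule chose, their medians are a description.

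Olig1-Olig2 FOR138-REV226, 270 kb apart, had 101, 103, 292 and 349 reads where 24.9, 22.9, 47.7 and 56.5 were predicted, ratios of 4.06, 4.50, 6.12 and 6.18. Its mirror pair FOR225-REV137 had 56, 94, 131 and 175 reads and ratios of 3.53, 4.05, 5.72 and 3.99. FOR227-REV139, in the swapped block, had 65, 39, 120 and 187 reads and ratios of 4.51, 4.42, 8.03 and 8.47. In these last ratios both NPC libraries lay above both ES libraries. FOR138-REV224 stood further apart between cell types, with 161, 108, 801 and 1523 reads and ratios of 3.01, 2.67, 8.81 and 8.95. Windows of 100 kb were then laid over the regions, counting pairs predicted at 5 reads. Between the windows at 400 to 500 and 700 to 800 kb, 28 of 211 such pairs were shared contacts, 17 with the forward fragment first and 11 with the reverse fragment first. The region's shares by distance gave 4.56 there.

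**Figure D3:**
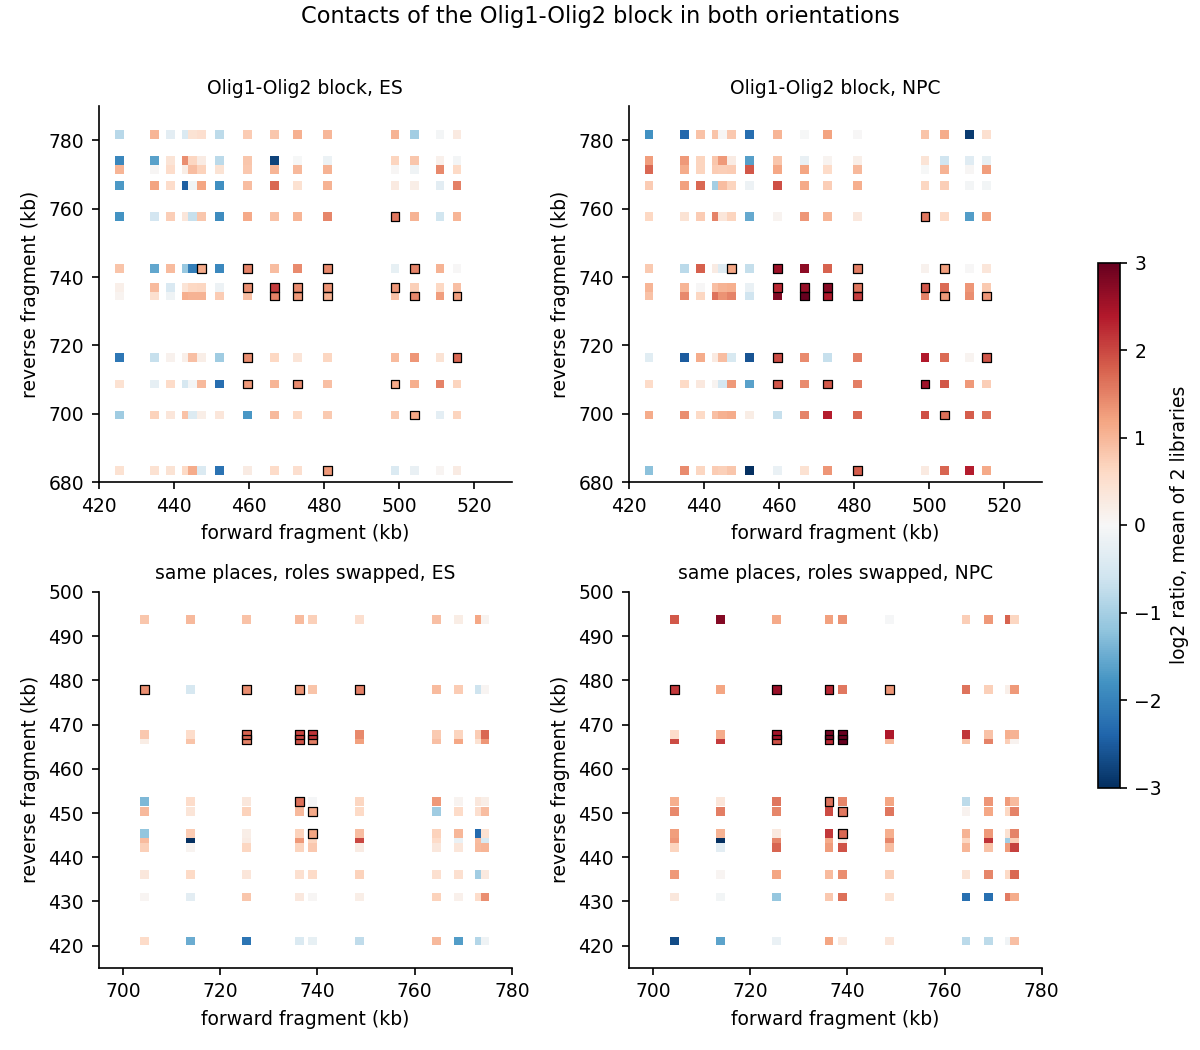
Log2 ratio (colour, mean of 2 libraries) of each fragment pair around the Olig1-Olig2 block, by position of the forward (x axis, kb) and reverse fragment (y axis, kb), in ES cells (left) and NPCs (right). The upper panels show the block and the lower panels the same places with forward and reverse fragments swapped; black outlines are shared contacts, and red squares gather at the same places in all 4 panels.

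In Oct4, 82 of the 137 contacts between 50 and 200 kb had both ends in an area from 674 to 954 kb. These limits match outer ends of the groups of 28 and 20 contacts described below, so the count is a description. No share of covered pairs stands beside it. The largest group, 28 contacts 62.3 to 156 kb apart, joined forward fragments at 795 to 879 kb with reverse fragments at 674 to 743 kb. The 63 pairs of the block had median ratios of 2.54, 2.12, 2.67 and 3.29, and 30 were shared contacts. The swapped block held 16 shared contacts among 54 pairs, with medians of 2.03, 1.70, 2.46 and 2.92. FOR184-REV155, 102 kb apart, had 674, 373, 262 and 368 reads and ratios of 4.42, 3.20, 6.72 and 5.45. Its mirror pair FOR156-REV185 had ratios of 2.75, 2.25, 2.54 and 4.75. A group of 14 lay in the swapped orientation, and with its own primers swapped 15 of 20 pairs were shared contacts, with medians of 3.22, 2.57, 3.97 and 4.82. FOR153-REV188 of that group, 140 kb apart, had 3377, 1412, 2101 and 4285 reads and ratios of 5.08, 4.58, 4.82 and 5.79, values that overlapped between the cell types.

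A second Oct4 group of 20 contacts joined forward fragments at 825 to 954 kb with reverse fragments at 875 to 948 kb. Its wide block had lower medians, 1.27, 1.39, 1.29 and 2.04 over 84 pairs with 20 shared contacts. The swapped block had 1.28, 1.32, 1.25 and 1.59 over 64 pairs with 10 shared contacts. Within it, FOR195-REV203, 64.7 kb apart, had 6248, 1732, 1827 and 9630 reads and ratios of 7.37, 4.90, 4.16 and 6.64. Its mirror pair FOR204-REV194 had 302, 117, 198 and 792 reads and ratios of 3.29, 2.83, 3.36 and 7.25. The windows 700 to 800 against 800 to 900 kb held 36 contacts where the region's shares by distance gave 8.08. The windows 800 to 900 against 900 to 1000 kb held 29 against 7.16. Further out, the windows 100 to 200 against 400 to 500 kb held 14 against 2.11, 9 with the forward fragment first and 5 with the reverse fragment first. Windows were ranked by their contacts after the values had been seen, so their counts carry no test.

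Not every Oct4 group recurred with swapped primers. A group of 7 joined forward fragments at 1829 to 1861 kb with reverse fragments at 966 to 1096 kb, 764 to 895 kb apart, and its block had median ratios of 3.02, 3.65, 4.53 and 4.22. In the swapped block 1 of 14 pairs was a shared contact, and the medians were 0.93, 0.73, 0.29 and 0.06. Only 2 of those 14 pairs had 10 reads in every library, so that the comparison rests on few reads. A group of 7 at forward 492 to 501 kb and reverse 388 to 420 kb had 2 shared contacts among 10 swapped pairs. The swapped medians there were 0.86 and 0.84 in ES and 2.33 and 3.20 in NPCs.

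Smaller groups appeared in the other regions. In Nanog, 5 contacts joined forward fragments at 474 to 487 kb with reverse fragments at 416 to 456 kb. The block had median ratios of 2.46, 2.39, 2.93 and 3.17, and the swapped block 1.98, 2.13, 2.28 and 2.41. FOR141-REV132 of this group, 40.8 kb apart, had 102, 56, 130 and 26 reads and ratios of 2.62, 2.85, 4.24 and 2.95. The windows 400 to 500 against 500 to 600 kb held 13 Nanog contacts, where 1.99 were given by distance. The windows 600 to 700 against 1000 to 1100 kb held 5 against 0.331, in both orientations.

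In Klf4 the contacts fell into a short-range and a long-range set. Of 350 pairs within 10 kb predicted at 5 reads, 33 (9.43%) were shared contacts, and between 50 and 100 kb 0 of 1166 were. Between 200 and 400 kb there were 33 of 1878, and 14 of these joined the windows 0 to 100 and 300 to 400 kb, where 3.06 were given by distance. They came in both orientations, 7 each, and none had a geometric mean ratio of 10 or more. All 174 pairs of those windows predicted at 5 reads had median ratios of 1.80, 1.69, 1.61 and 1.92. The largest adjoining group of Klf4 had 4 contacts within 18.7 kb, and 0 of its 11 swapped pairs was a shared contact.

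Nestin and Sox2 had looser sets. In Nestin, 7 contacts joined the windows 500 to 600 and 700 to 800 kb, where 1.21 were given by distance, and the 164 pairs predicted at 5 reads there had medians of 1.45, 1.30, 1.60 and 1.76. Its largest adjoining group had 4 contacts, of forward fragments at 875 to 879 kb with reverse fragments at 853 to 863 kb. The swapped block of that group had medians of 2.14 and 2.04 in ES and 1.05 and 0.92 in NPCs, with 0 shared contacts among 9 pairs. In Sox2, 7 contacts joined the windows 400 to 500 and 800 to 900 kb, against 0.635 by distance, and 4 joined 500 to 600 and 800 to 900 kb, against 0.671. Medians over the pairs of those Sox2 windows predicted at 5 reads lay between 1.28 and 1.84. Sox2 had 6 adjoining groups, each of 2 contacts.

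The gene desert had 4 shared contacts, all within 8.58 kb, and 0 of the 397 pairs further than 10 kb apart that were predicted at 5 reads. FOR037-REV036, 4.44 kb apart, had 2599, 1191, 10821 and 52467 reads and ratios of 5.77, 3.31, 11.5 and 11.9. FOR047-REV050, 8.58 kb apart, had ratios of 2.38, 3.05, 3.71 and 4.56, while its mirror pair had 0.61, 0.68, 1.25 and 1.35. The desert spans 196 kb, so the longer distances of the other regions were not assayed in it. Within 10 kb its share of 5.97% was near the 5.86% of all regions.

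Around the shared contacts as a whole, other pairs were also raised. Side neighbours have 1 fragment moved to the next of its kind and the other kept, and only those that were no shared contacts were read. They had a median ratio of 1.35 (geometric mean of 4 libraries) over the 782 contacts with such a neighbour. Around matched pairs it was 0.934. Diagonal neighbours, with both fragments moved and so no fragment in common, had 1.22 against 0.881. Mirror pairs, found for 666 contacts, had 1.57 against 0.959. Shared contacts were left out of the side and diagonal neighbours but not of the mirror pairs, of which 92 were shared contacts. The mirror values therefore include pairs that the rule chose. Each library showed the same order, with mirror medians of 1.57, 1.52, 1.71 and 1.84 against 1.02, 1.03, 1.02 and 1.10.

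A mirror pair reached a geometric mean ratio of 2 or more for 217 of the 666 contacts (32.6%), against 9.004% around matched pairs, and was itself a shared contact for 92. The mirror median was 2.27 for contacts 50 to 100 kb apart, against 1.03 around matched pairs, and 1.92 against 1.09 at 100 to 200 kb. Between 200 and 400 kb it was 1.67 against 0.974. Beyond 800 kb it was 0.49 for both. By region it was 1.67 against 0.947 in Olig1-Olig2, 1.64 against 0.931 in Oct4, 1.57 against 0.891 in Nestin and 1.57 against 0.946 in Nanog. Klf4 had 1.30 against 1.08 and Sox2 1.21 against 0.994. Contacts that adjoined another had a mirror median of 1.96, and those standing alone 1.23 against 0.921 around matched pairs.

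The surroundings differed with the size of the excess. Contacts with a ratio of 2 to 3 had a mirror median of 1.63 and those of 3 to 5 had 1.78, against 0.993 and 0.999 around matched pairs. At 5 to 10 it was 1.25 against 0.856. At 10 to 30 it was 0.84 against 0.741, and at 30 or more 0.48 against 0.762. None of the 66 mirror pairs of contacts at 10 or more was a shared contact, against 92 of 600 below 10. Below 10 the count was 25 of 186 at 200 to 400 kb. It fell to 2 of 64 at 400 to 800 kb and 1 of 55 beyond 800 kb. Of the 70 contacts at 10 or more, 8 (11.4%) adjoined another contact, against 8.86% of matched pairs. Below 10, 357 of the 722 (49.4%) did, against 14.0% of matched pairs. The ratio classes were set after the values had been seen, and the higher classes lay further apart, with a median distance of 640 kb at 10 to 30 and 585 kb at 30 or more. Within 200 to 400 kb, contacts below 10 had a mirror median of 1.71 (186 mirror pairs), against 0.977 around matched pairs. Those at 10 or more had 1.11 (14 mirror pairs) against 0.956. Within 400 to 800 kb the values were 0.89 (64) against 0.743 and 0.49 (22) against 0.761. For contacts at 30 or more, side neighbours lay above those of matched pairs, 0.965 against 0.735, and diagonal neighbours below, 0.55 against 0.694.

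**Figure D4:**
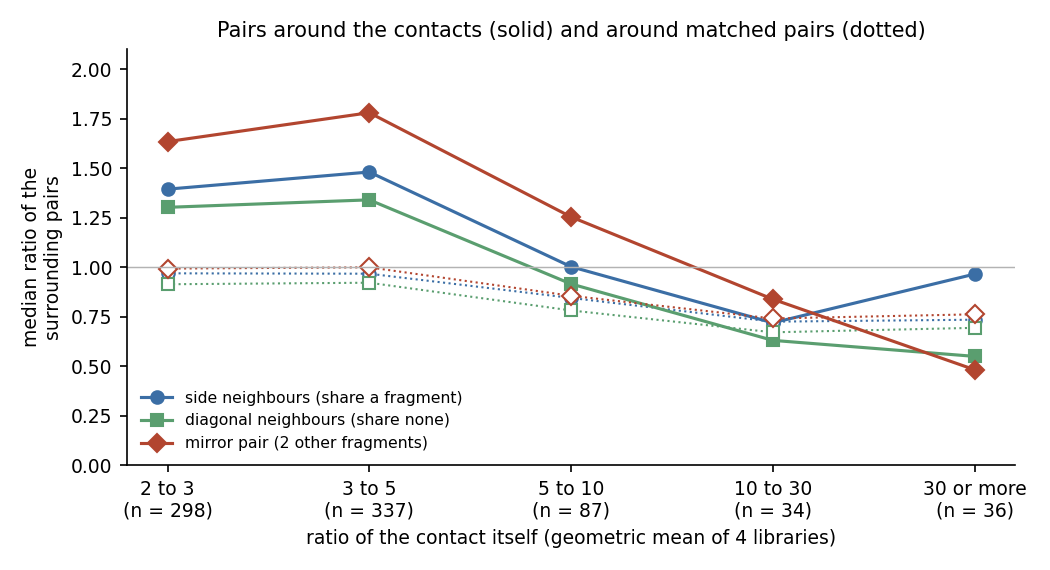
Median ratio of the pairs around shared contacts (y axis, geometric mean of 4 libraries) by the ratio class of the contact itself (x axis, n contacts), for side neighbours, diagonal neighbours and mirror pairs. Shared contacts were left out of the neighbours but not of the mirror pairs. Solid lines are shared contacts and dotted lines with open marks are covered pairs of the same region and distance; the mirror pairs lie above the dotted line below a ratio of 10 and below it at 30 or more.

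The pairs with the highest ratios had mixed surroundings, none of them near the ratio of the pair itself. Oct4 FOR406-REV190, 856 kb apart, had 746767, 1510188, 307109 and 1196478 reads, ratios of 28068, 29038, 11688 and 16411. Its side neighbours had a geometric mean ratio of 0.34 and its diagonal neighbours 0.32. Its mirror pair had 3, 9, 55 and 38 reads, ratios of 0.85, 3.42, 5.01 and 1.83. Klf4 FOR267-REV075, 530 kb apart, had 242250, 319356, 114050 and 164856 reads. Its side neighbours stood at 1.10 without the adjoining shared contact FOR270-REV075, which had a geometric mean ratio of 6.03. FOR273-REV075, at 5.43, belonged to the same group. Diagonal neighbours of FOR267-REV075 stood at 0.21, and its mirror pair had 4, 1, 0 and 67 reads. Oct4 FOR354-REV116, 960 kb apart, had 7235, 7204, 90998 and 197931 reads against 0, 1, 4 and 3 in the mirror pair, with side neighbours at 1.67 and diagonal neighbours at 0.35. In Oct4 FOR406-REV190, Klf4 FOR267-REV075 and Oct4 FOR354-REV116 the count of the mirror pair was lower by orders of magnitude in every library.

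Oct4 FOR024-REV005, 88.8 kb apart, was the pair with most reads of the whole table, 2470731, 2870923, 2274097 and 9079305, at ratios of 823, 1661, 515 and 937. Its mirror pair FOR004-REV025 had ratios of 1.17, 0.93, 0.42 and 1.11. Nanog FOR106-REV174, 276 kb apart, had ratios of 757, 989, 919 and 522 and a mirror pair at 2.25, 1.39, 1.53 and 2.92. Nestin FOR165-REV258, 430 kb apart, had 8029, 21762, 4697 and 20191 reads and a mirror pair with 1, 2, 1 and 17. Lower in this class, Olig1-Olig2 FOR147-REV241, 291 kb apart, had ratios of 134.5, 209, 70.8 and 54.0 and Sox2 FOR165-REV240, 243 kb apart, 58.6, 78.8, 74.3 and 27.0, with mirror pairs at a geometric mean of 1.17 and 1.06. Olig1-Olig2 FOR025-REV028, 15.6 kb apart, had 149, 276, 47.3 and 114, with side neighbours at 1.73 and a mirror pair at 1.86. Klf4 FOR205-REV099, 310 kb apart, had 48.3, 86.3, 37.7 and 27.6, and Sox2 FOR192-REV180, 48.1 kb apart, 45.7, 55.9, 13.5 and 15.6. Nestin FOR013-REV220, 842 kb apart, and Nanog FOR339-REV118, 768 kb apart, had smallest ratios of 111 and 66.4.

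The longest contact of each region often had few reads. The longest of all, Oct4 FOR011-REV508 at 2056 kb, had 22, 12, 206 and 161 reads and ratios of 3.40, 2.46, 6.31 and 3.74, with a mirror pair at 2.09. The longest in Nanog was FOR339-REV008 at 1123 kb, with 25, 11, 117 and 120 reads, and that in Klf4 was FOR333-REV012 at 888 kb, with 23, 16, 12 and 14. Sox2 FOR303-REV053 at 696 kb and Olig1-Olig2 FOR013-REV241 at 733 kb had geometric mean ratios of 3.81 and 4.80 and mirror pairs at 0.45 and 0.27. Nestin FOR024-REV260, at 957 kb, had 31, 54, 86 and 151 reads where 0.777, 0.535, 0.838 and 13.9 were predicted, ratios of 39.9, 101, 103 and 10.8. Its mirror pair had 0 reads in every library at a prediction too low to read.

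Shared contacts used 768 of the 1464 assayed fragments, and 405 of these took part in 1 contact each. In Oct4, 244 of 299 fragments had a contact, against 82 of 248 in Sox2 and 7 of 48 in the gene desert. There were 65 fragments with 5 or more contacts, of which 50 were in Oct4. Set against the share of covered pairs with the same region and distance, 15 of the 65 had over 3 times the number given by their pairs.

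Oct4 REV155, at 723 kb, led with 13 contacts among 56 covered pairs, where 2.60 were given by distance. Of these 13, 8 belonged to the group of 28, and its other covered pairs had a median ratio of 0.95. Oct4 REV203, at 944 kb, had 13 of 100 against 4.26, and FOR193, at 870 kb, 10 of 49 against 2.20. FOR156, FOR189, FOR112 and REV190 had between 9 and 10 contacts each against 2.68 to 3.89. FOR406, at 1712 kb, had 11 of 81 against 5.17, with partners from 0 to 1484 kb and a median ratio of 0.36 in its other covered pairs. FOR447, at 1861 kb, had 11 of 130 against 9.50 and FOR441, at 1829 kb, 10 of 85 against 5.00. Elsewhere the leading fragments were Nanog REV128 with 7 contacts, Olig1-Olig2 FOR225 with 7, Klf4 FOR226 with 5, Nestin FOR223 with 4, Sox2 FOR192 with 3 and gene desert REV050 with 2. Olig1-Olig2 FOR225, at 736 kb, is an end of the block near 470 and 740 kb, and its 7 contacts of 75 covered pairs stood against 2.09.

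The spread of the ratios was read in the same libraries that the rule used, and is a description. The median absolute difference on the log2 ratio scale was 0.27 between ES replicates and 0.38 between NPC replicates, against 0.35 and 0.60 in matched pairs. Between the cell type means it was 0.45 against 0.52. The signed difference, NPC minus ES, had a median of 0.28 against 0.17. Both NPC ratios lay above both ES ratios in 344 contacts (43.4%), with 32.4% of all covered pairs doing so. Both ES ratios lay above in 74 (9.34%), with 17.0% of covered pairs. The rule used these ratios, and the threshold passed more pairs in NPCs, so nothing is read from these shares. The median difference was 0.41 in Oct4, 0.41 in Olig1-Olig2, 0.22 in Nanog, 0.15 in Klf4, 0.14 in Nestin and 0.13 in Sox2.

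Reads were compared between the cell types with edgeR's quasi-likelihood test over 46967 pairs with a mean of at least 10 reads. At an adjusted p (Benjamini-Hochberg) of 0.05, 82 of the 792 shared contacts (10.4%) were called, against 7.22% of all pairs tested. Of these 82, 49 were higher in NPCs (4.90% of all pairs were) and 33 higher in ES cells (2.33% of all pairs). Median log2 fold changes, NPC over ES, were 3.16 and -2.95. By the rule, contacts had at least 10 reads in every library, while the pairs tested needed only a mean of 10. The shares are therefore at unlike depth. At a mean of at least 50 reads, 27.3% of the 715 contacts tested and 24.1% of all pairs were called. Oct4 had 21 higher in NPCs and 15 higher in ES, Olig1-Olig2 14 and 4, Klf4 7 and 4, Nanog 2 and 5, Nestin 1 and 5, Sox2 3 and 0, and the gene desert 1 and 0. As shares, 12.5% of the Nanog contacts were called (7.83% of all pairs tested in that region), 12.0% in Olig1-Olig2 (8.14%), 11.3% in Klf4 (6.33%), 9.84% in Oct4 (7.67%), 9.52% in Nestin (6.90%) and 5.36% in Sox2 (5.83%). With library totals as scaling, under which the median of all log2 fold changes moved from 0.12 to -0.29, 26 contacts were higher in NPCs (2.33% of all pairs) and 32 higher in ES (2.54%), so the majority lay on the other side. The median log2 fold change of the 792 was 0.17 and -0.25 under these scalings.

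These calls depended on the libraries. Without ES replicate 1 there were 23 (2.90% of the contacts, 0.537% of all pairs), and without ES replicate 2 there were 6 (0.758%, 0.132% of all pairs). Without NPC replicate 1 there were 318 (40.2%, 49.8% of all pairs), and without NPC replicate 2 there were 59 (7.45%, 12.6% of all pairs). Whether the contacts were called more or less often than all pairs thus turned with the library left out. With the predicted signal as an offset, so that ratios and not reads were compared, edgeR called 0 contacts and 0 of the 46967 pairs (0.00%). At an unadjusted p under 0.05 there were 123 contacts and 5135 pairs. DESeq2 on reads called 242 contacts (30.6%) and 17.2% of all pairs.

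Oct4 FOR021-REV334, 1329 kb apart, had 15, 13, 2020 and 2962 reads, and ratios of 2.13, 2.94, 52.1 and 39.4. Its reads were higher in NPCs by 6.40 ± 0.64 (log2 fold change ± SE, edgeR adjusted p = 0.022). Klf4 FOR273-REV075, 550 kb apart, had 233, 107, 6461 and 12436 reads, 4.74 ± 0.64 higher in NPCs (edgeR adjusted p = 0.022). Oct4 FOR114-REV025, 409 kb apart, had 771, 252, 17445 and 36172 reads, 4.68 ± 0.75 higher in NPCs (edgeR adjusted p = 0.025). In the other direction, Nestin FOR223-REV216, 21.7 kb apart, had 1470, 816, 128 and 147 reads and a log2 fold change of -4.02 ± 0.58 (edgeR adjusted p = 0.024). Its ratios, 3.96, 3.69, 2.02 and 2.77, differed less than its reads. Klf4 FOR337-REV336 and FOR210-REV209, 2.08 and 2.23 kb apart, had log2 fold changes of -4.18 ± 0.90 and -3.90 ± 0.78 (edgeR adjusted p = 0.038 and 0.034). These 6 pairs were picked for the largest changes among those called, and their unscaled reads did not overlap between the cell types. By ratio, Klf4 FOR210-REV209 did overlap, with 6.48, 2.76, 2.97 and 3.61, while the others did not. None of the 6 was called with the prediction as an offset, where no pair of the table was. There the log2 fold change was 4.04 for Oct4 FOR021-REV334, 1.99 for Oct4 FOR114-REV025 and 1.71 for Klf4 FOR273-REV075. It was -1.02 for Klf4 FOR337-REV336, -0.87 for Nestin FOR223-REV216 and -0.68 for Klf4 FOR210-REV209. Klf4 FOR337-REV336 and FOR210-REV209 were not called without ES replicate 1 or without NPC replicate 2. Oct4 FOR114-REV025 was not called without ES replicate 2 or NPC replicate 2, and Klf4 FOR273-REV075 and Nestin FOR223-REV216 were not called without ES replicate 2.

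**Figure D5:**
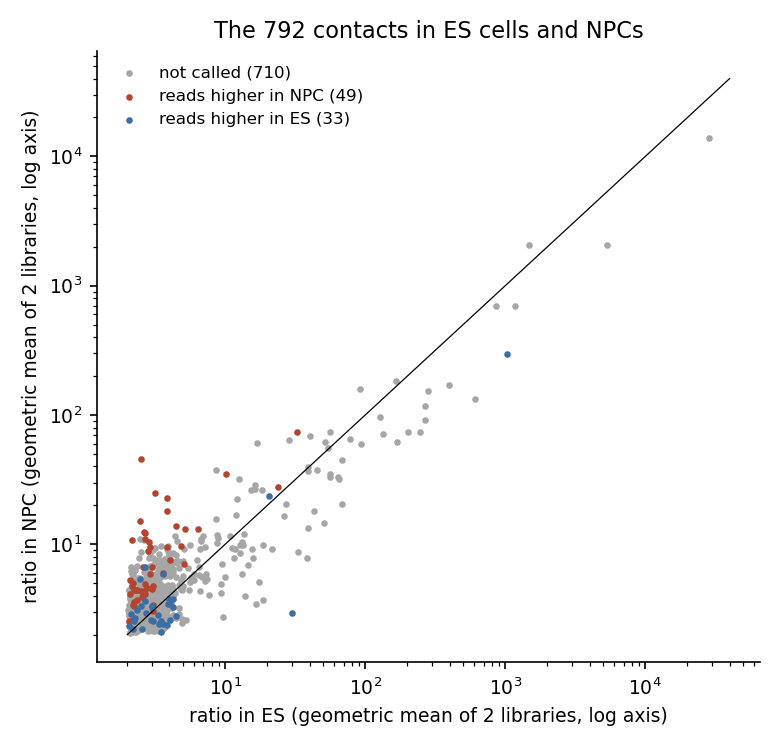
Ratio of each of the 792 shared contacts in ES cells (x axis, log scale) and NPCs (y axis, log scale), as the geometric mean of 2 libraries, with the line of equal ratio. Red and blue points are contacts whose reads edgeR called higher in NPCs (49) and in ES cells (33), grey points the other 710; of the 82 called contacts 6 have a ratio of 10 or more, against 70 of all 792.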

How the data were processed

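The 5C table lists forward and reverse primer pairs. For each pair and library the authors deposited whole-number read counts that were not normalised, and beside them a predicted signal. A deposited ratio divides the reads by that signal. All but 7 ratios were recovered to within 0.001, once pairs without reads were entered at 0.25 reads. The model of the prediction is not given in these sources. In the files it was the product of a decay with distance and a primer factor. Steps between adjacent distances left at least 99.98% of the decay's log-scale variance as smooth, and at least 95.7% of the primer factor's was additive over the 2 fragments. Bowtie is named per the submitters' processing notes. The deposited p-value and score, 8 per-sample columns, were left out.

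Positions were rebuilt from the distances, with a largest misfit of 0.556 bp. Since the fragments have no chromosome positions here, the deposited CTCF and Smc1 peak lists were not joined and no sequence was printed. Matched values weight covered pairs outside the set to the contacts' region and distance bin, with edges at 10, 20, 50, 100, 200, 400 and 800 kb. For readings in a library or cell type not used in the choice, matched pairs needed 10 reads only in the libraries used. Ratios of 0 reads entered as deposited.

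Reads were tested with edgeR 4.0.16 in R 4.3.3 on the counts with TMM factors and cell type as the only term. Benjamini-Hochberg adjustment ran over all pairs tested. Alternatives were other ratio and read minimums, own expectations (lowess, span 0.3), DESeq2 1.42.0, limma 3.58.1, other scalings and filters, a replicate block and the removal of each library. Scripts were tested on simulated data. With 2 libraries on each side, the smallest p that an exact permutation can reach is 0.333, so none was used. Intervals are exact (Clopper-Pearson, 95%) and leave out the copying of molecules by PCR.

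The contacts, lists and measures were chosen with earlier results of these data known. Pairs named are, per region, the 2 with the highest smallest ratio and the longest, the 3 on each side of the threshold, the 3 with the largest change in each direction among those called, the fragments with most contacts, and the largest groups. Pairs that lead a group or mirror it, and windows, were chosen after their values were seen.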

Additional observations from a re-analysis of the deposited data

How the results depend on the processing

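The number of shared contacts depended on the threshold: 2633 pairs passed at a ratio of 1.5 and 188 at 3, while leaving out each library gave 1035 to 1344. An expectation from distance alone passed 12562 pairs, of which 576 were shared contacts. One from distance and primer effects passed 1016, sharing 591 with the 792 (74.6% of these and 58.2% of the 1016). The median distance moved to 389 kb at a ratio of 3, to 166 and 119 kb with at least 20 and 50 reads, and to 230 kb with no read minimum. It was 268 kb with distance alone and 233 kb with distance and primers. The mean share that passed in a library not used was 70.0%, and 78.5% at a ratio of 3.

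The median side neighbour ratio was 1.21 for a threshold of 1.5, 1.11 for 3, 1.43 with at least 50 reads, 1.26 with distance alone and 1.26 at 2 fragments away. The mirror median was 1.42 for 1.5, 1.10 for 3, 1.11 with distance alone and 1.5002 with mirror fragments within 5 kb, and 1.498 to 1.58 with a library left out. It stayed above 1 in these settings. The replicate difference on the log2 scale was 0.32, against 0.48 at a ratio of 3 and 0.59 with distance alone. The 146 fragments with most contacts held 44.6% of contact ends, with 22.5% of the ends of covered pairs on the 146 fragments with most of those; the smaller set was not thinned to compare them. The share was 31.2% and 66.5% at ratios of 1.5 and 3. It was 47.5%, 52.1% and 40.6% with at least 20 reads, 50 reads and no minimum, 36.0% and 50.0% with the own expectations, and 36.9 to 40.1% with a library left out.

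Of the edgeR calls, 82 in all with 49 higher in NPCs and 33 in ES, the number was 150 (103 higher in NPCs) with no count filter. That was 18.9% of the contacts, with 10.0% of all pairs called. It was 195 (128 higher in ES) at a mean of 50 reads, 242 (150 and 92) with DESeq2 and 155 (91 and 64) with limma. These were 27.3%, 30.6% and 19.6% of the contacts tested, against 24.1%, 17.2% and 13.9% of all pairs. Library totals left 26 higher in NPCs, and the predicted signal as an offset left 0 in all, 0 higher in NPCs and 0 in ES. Leaving out each library gave 6 to 318 calls, 2 to 162 higher in NPCs and 4 to 156 in ES. The cause of these shifts was not tested. The labels do not say whether replicate numbers mark a shared batch. Replicate 1 deviations of ES and NPC correlated at -0.13 over 46967 pairs, which cannot settle it with 2 libraries per cell type. A replicate block gave 106 calls (13.4% of the contacts, 9.75% of all pairs), 52 of them higher in ES. The crossed pairing, added after seeing the data, gave 152 (102 and 50), 19.2% of the contacts against 11.0% of all pairs. At a read minimum of 10, pairs predicted below 5 reads needed a ratio above 2 to enter, and 70 of the contacts did so.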
